A study of Mus musculus with 2 samples.

Results

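The miR-148 family of the newborn mouse retina comprises miR-148a, miR-148b and miR-152, each with a product of the 5′ side (5p arm) and of the 3′ side (3p arm) of its hairpin. Its members were chosen by name, and all 6 arms had a row among the 1358 mature miRNAs of the deposited tables. The series profiled small RNA in a single group, whole retina at postnatal day 0 from wild-type mice of the outbred strain CD-1, with 2 libraries labelled replicate 1 and replicate 2. No gene was altered and no agent was given, and the labels do not say whether the libraries came from separate animals, so their spread and the p-values below may reflect technical differences only. With 1 group there is no condition to compare. The data give the level of each arm, the use of the arms, the balance between the members and the sequence form of their reads. The title of the series places it in work on miR-216b, Foxn3 and amacrine cells.

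A mature miRNA guides an Argonaute protein to messenger RNAs that pair with its seed, the bases just behind its 5′ end. One arm of a hairpin is usually retained as the guide, and the other is mostly degraded. miRNAs with the same seed are grouped as a family because they can bind overlapping sets of targets. The 3p arms of miR-148a, miR-148b and miR-152 are the known guides of this family. They are best known for repressing transcripts of the DNA methyltransferases DNMT1 and DNMT3B in human cells, and miR-148a is also known as an abundant miRNA of liver and of B-lineage cells.

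The mature sequences show why the arms are treated separately below, since the 3p arms share a seed in full and the 5p arms do not. They are given 5′ to 3′ from RefSeq on GRCm38.p6, with the seed (bases 2 to 8, counted from the 5′ end) in capitals.
miR-148a-3p: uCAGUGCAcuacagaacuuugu
miR-148b-3p: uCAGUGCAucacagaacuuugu
miR-152-3p: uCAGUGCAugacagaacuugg
miR-148a-5p: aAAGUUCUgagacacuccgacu
miR-148b-5p: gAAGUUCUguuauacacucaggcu
miR-152-5p: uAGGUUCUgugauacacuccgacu

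The 3p arms differed only behind the seed. Relative to miR-148a-3p, miR-148b-3p carried C9U and U10C, and miR-152-3p carried C9U, U10G and U20G and was 1 base shorter (the base of miR-148a-3p first, positions from 1 at the 5′ end). These arms thus differed at 2 or 3 of the 21 or 22 aligned bases. The 5p arms of miR-148a and miR-148b shared the seed AAGUUCU and differed by A1G at the base before it. miR-152-5p carried A3G inside the seed relative to the other 5p arms, so it stood outside their seed group. With gaps allowed, the 3p arms lay 2 to 4 edits apart and the 5p arms 5 or 6.

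The hairpins are shown with the mature arms in capitals, the 5p arm first, to place each product in its precursor.
Mir148a: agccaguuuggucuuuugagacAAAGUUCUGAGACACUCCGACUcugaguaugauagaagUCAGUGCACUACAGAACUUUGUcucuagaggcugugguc
Mir148b: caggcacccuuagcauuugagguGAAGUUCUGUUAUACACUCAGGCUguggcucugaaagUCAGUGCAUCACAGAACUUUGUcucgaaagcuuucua
Mir152: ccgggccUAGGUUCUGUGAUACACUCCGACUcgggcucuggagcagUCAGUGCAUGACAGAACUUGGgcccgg

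The arms are separated by 16 bases in Mir148a, 13 in Mir148b and 15 in Mir152. On GRCm38 (GENCODE M21 annotation), Mir148a lies on the minus strand at chr6:51269812-51269910, outside any other annotated gene, and Nfe2l3 is the nearest coding gene at 163 kb. Mir148b lies on the plus strand at chr15:103285125-103285221, in an intron of Copz1. Mir152 lies on the plus strand at chr11:96850393-96850465, in an intron of Copz2. Copz1 and Copz2 encode the zeta subunits of the coatomer that coats vesicles between the Golgi and the endoplasmic reticulum, and both are transcribed on the strand of their miRNA. Both of these hairpins also neighbour a Hox cluster, the homeotic genes that pattern the body axis. Mir148b lies 248 kb from Hoxc4 and Mir152 482 kb from Hoxb1. No distance to a Hox gene is given here for Mir148a, so the hairpins are not compared in this respect.

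The family was dominated by miR-148a-3p, one of the most abundant miRNAs of the newborn retina, and the other 5 arms spread over a wide range below it. The libraries held 8337902 and 8118208 counts in total, and levels are given as CPM, the count over this total scaled to 1000000. Each level is given with its 95% interval (exact Clopper-Pearson), which covers counting error only. miR-148a-3p had 168481 counts in replicate 1 (20207 CPM, interval 20111 to 20302) and 186186 in replicate 2 (22934 CPM, interval 22832 to 23038). It held rank 8 of 1358 in each library, at 21571 ± 1929 CPM (SD, n = 2).

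The other 3p arms were lower by an order of magnitude or more. miR-148b-3p had 10801 counts in replicate 1 (1295 CPM, 1271 to 1320) and 11436 in replicate 2 (1409 CPM, 1383 to 1435), a mean of 1352 ± 80.1 CPM (SD, n = 2) and rank 61. miR-152-3p had 3206 counts in replicate 1 (385 CPM, 371 to 398) and 3967 in replicate 2 (489 CPM, 474 to 504), a mean of 437 ± 73.6 CPM and rank 103. For all 3 of these arms the intervals of the libraries did not overlap, with replicate 2 the higher, so counting error was smaller than the spread between libraries.

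The 5p arms, the passenger strands, were detected in both libraries at a small part of these levels. miR-148a-5p had 462 counts in replicate 1 (55.4 CPM, 50.5 to 60.7) and 440 in replicate 2 (54.2 CPM, 49.3 to 59.5). miR-148b-5p had 270 counts in replicate 1 (32.4 CPM, 28.6 to 36.5) and 296 in replicate 2 (36.5 CPM, 32.4 to 40.9). miR-152-5p had 135 counts in replicate 1 (16.2 CPM, 13.6 to 19.2) and 161 in replicate 2 (19.8 CPM, 16.9 to 23.1). The intervals of the libraries overlapped for each 5p arm, and the order miR-148a, miR-148b, miR-152 was the same as among the 3p arms. Their means were 54.8 ± 0.856, 34.4 ± 2.88 and 18.0 ± 2.57 CPM (SD, n = 2), at ranks 215, 259 and 323. The median level of the 6 arms was 246 CPM, beside 3.65 CPM over the 924 miRNAs detected in both libraries.

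**Figure D1:**
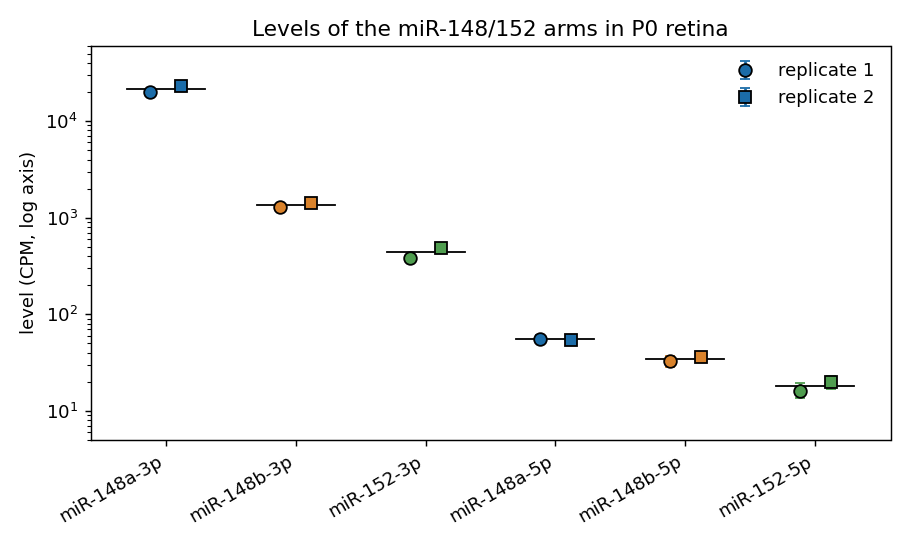
Level of each arm in CPM (log axis) in replicate 1 (circles) and replicate 2 (squares), with the exact 95% counting interval as error bars and the mean as a line, for the 3p arms on the left and the 5p arms on the right. The 3p arms ran from 21571 CPM for miR-148a-3p to 437 CPM for miR-152-3p, and all 5p arms lay between 16.2 and 55.4 CPM.

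To place these levels, each arm is set beside the miRNAs ranked next to it. For each arm, the miRNA next above and next below it by mean level was compared by the log2 ratio of counts within a library. Of these 12 neighbours, 11 differed from the family member by no more than 2 SD of the ratio over the libraries. The neighbours were picked as the closest in mean level in these same libraries, so small ratios follow from the choice and say nothing particular about the members. The exception was miR-30d-5p, an arm of the miR-30 family at 28808 ± 345 CPM, which stood above miR-148a-3p (log2 ratio of miR-148a-3p over miR-30d-5p -0.52 in replicate 1 and -0.32 in replicate 2, mean -0.42 ± 0.15). let-7a-5p, a member of the let-7 timing family at 18061 ± 799 CPM, followed below it, with a log2 ratio of miR-148a-3p over let-7a-5p of 0.12 and 0.39 (mean 0.25 ± 0.19). miR-148b-3p stood between miR-125b-5p (1476 ± 118 CPM) and miR-17-5p (1350 ± 94.2 CPM), and was below both in replicate 1 and above both in replicate 2. miR-152-3p stood between miR-669c-5p (457 ± 56.0 CPM) and miR-434-3p (419 ± 51.8 CPM), with the same crossing. The neighbours of the 5p arms were miR-384-5p and miR-18a-5p for miR-148a-5p, miR-486a-3p and miR-301a-3p for miR-148b-5p, and miR-877-5p and miR-329-5p for miR-152-5p.

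All 3 hairpins gave mostly 3p reads, but to very different degrees. The share of 3p reads in the counts of a hairpin was 99.73% in replicate 1 (99.70 to 99.75) and 99.76% in replicate 2 (99.74 to 99.79) for miR-148a. It was 97.6% (97.3 to 97.8) and 97.5% (97.2 to 97.8) for miR-148b, and 96.0% (95.2 to 96.6) and 96.1% (95.5 to 96.7) for miR-152. The ranges of the hairpins did not overlap, and the libraries of each hairpin lay close together.

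As a ratio of counts, the 3p arm exceeded the 5p arm by 365 in replicate 1 and 423 in replicate 2 for miR-148a, a mean log2 ratio of 8.62 ± 0.15 (SD, n = 2). The ratio was 40.0 and 38.6 for miR-148b (log2 5.29 ± 0.035) and 23.7 and 24.6 for miR-152 (log2 4.59 ± 0.038). Equality of the arms was tested by an exact binomial test, two-sided, with Benjamini-Hochberg adjustment over the 312 hairpins that had both arms in the table and 10 or more counts in each library. It gave an adjusted p at or below 1e-300, the smallest value written for any test here, for each of the 3 hairpins in each library. A difference was called where both libraries passed at 0.05 with the same sign and the mean exceeded 2 SD. This held for 89.4% of all hairpins in either direction and for 43.3% with the 3p arm higher. A 3p arm at least 4-fold higher in both libraries was found in all 3 hairpins of the family, beside 36.9% of all hairpins.

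Set against other hairpins, miR-148a stood toward the 3p end of the order, and miR-148b and miR-152 stood in the middle of the hairpins that favoured 3p. Ordered by 3p over 5p, miR-148a ranked 23, miR-148b 60 and miR-152 75 of 312. The absolute log2 ratio was larger in 48 hairpins than in miR-148a, in 125 than in miR-148b and in 156 than in miR-152, and its median over all hairpins was 4.59, the value of miR-152. Among the 129 hairpins whose arms summed to 100 CPM or more, the ranks were 16, 30 and 34. The SD of the log2 ratio between the libraries had a median of 0.27 over all hairpins, and that of each of the 3 arm ratios was lower. Many of the other hairpins had far fewer counts, and the SD was not compared at matched depth.

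**Figure D2:**
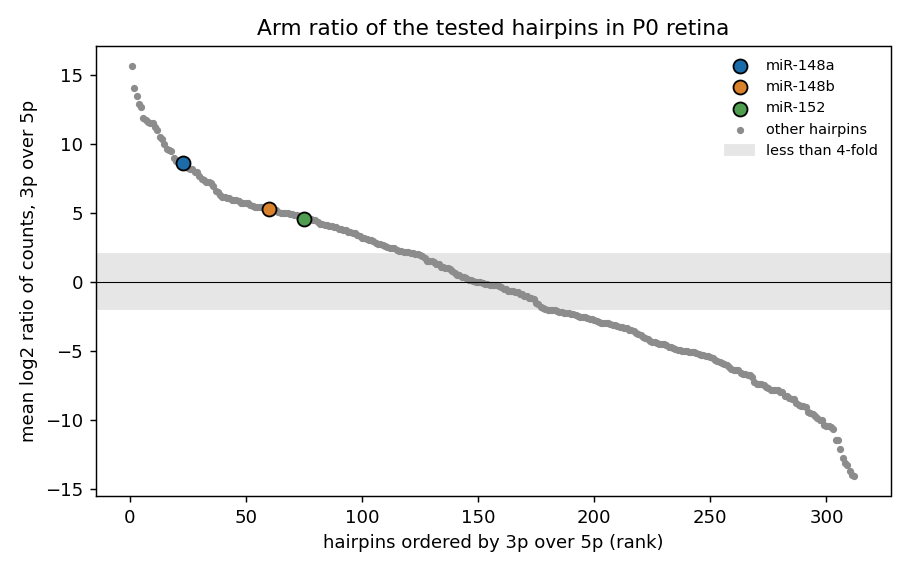
Mean log2 ratio of 3p over 5p counts for the 312 tested hairpins, ordered from the most 3p-biased to the most 5p-biased, with the 3 hairpins of the family in colour and ratios under 4-fold shaded. miR-148a lies at 8.62 near the upper end, while miR-148b at 5.29 and miR-152 at 4.59 lie in the middle of the 3p-biased hairpins.

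The arm ratios of the hairpins differed from each other by more than the counting error. The arm ratio of miR-148a exceeded that of miR-148b by a log2 difference of 3.19 in replicate 1 (exact conditional 95% interval 2.96 to 3.41) and 3.45 in replicate 2 (3.23 to 3.67), a mean of 3.32 ± 0.19 or 9.99-fold. It exceeded that of miR-152 by 3.94 (3.65 to 4.23) and 4.10 (3.83 to 4.37), a mean of 4.02 ± 0.11 or 16.2-fold. miR-148b exceeded miR-152 by 0.75 (0.44 to 1.06) and 0.65 (0.36 to 0.94), a mean of 0.70 ± 0.073. The ligation yield of a read depends on its sequence, and it is part of every ratio between different arms.

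The members were far less even in their 3p arms than in their 5p arms. miR-148a-3p took 92.3% of the counts of the 3p arms in replicate 1 (exact interval 92.2 to 92.4) and 92.4% in replicate 2 (92.2 to 92.5), a mean of 92.3% ± 0.0246 (SD, n = 2). miR-148b-3p took 5.80% ± 0.174 and miR-152-3p 1.86% ± 0.149. Among the 5p arms, miR-148a-5p took 53.3% in replicate 1 (49.9 to 56.6) and 49.1% in replicate 2 (45.7 to 52.4), a mean of 51.2% ± 2.99. miR-148b-5p took 32.1% ± 1.31 and miR-152-5p 16.8% ± 1.68. Thus miR-148a-3p exceeded miR-152-3p by 49.7-fold (log2 ratio 5.63 ± 0.12), whereas miR-148a-5p exceeded miR-152-5p by 3.05-fold (log2 ratio 1.61 ± 0.23).

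The other ratios within the family kept the same order. miR-148a-3p exceeded miR-148b-3p by a log2 ratio of 3.96 in replicate 1 and 4.03 in replicate 2 (mean 3.99 ± 0.044), and miR-148b-3p exceeded miR-152-3p by 1.75 and 1.53 (mean 1.64 ± 0.16). miR-148a-5p exceeded miR-148b-5p by 0.77 and 0.57 (mean 0.67 ± 0.14), and miR-148b-5p exceeded miR-152-5p by 1.00 and 0.88 (mean 0.94 ± 0.085). Each of the 6 ratios was positive in both libraries and over 2 SD. All 12 counts of the members were whole numbers. Only 6.77% of all counts in replicate 1 and 5.96% in replicate 2 were fractions, so whole counts do not set the members apart. How the authors assigned reads that fit more than 1 miRNA is not given in the sources used here, so an exchange of reads between the members was not tested.

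**Figure D3:**
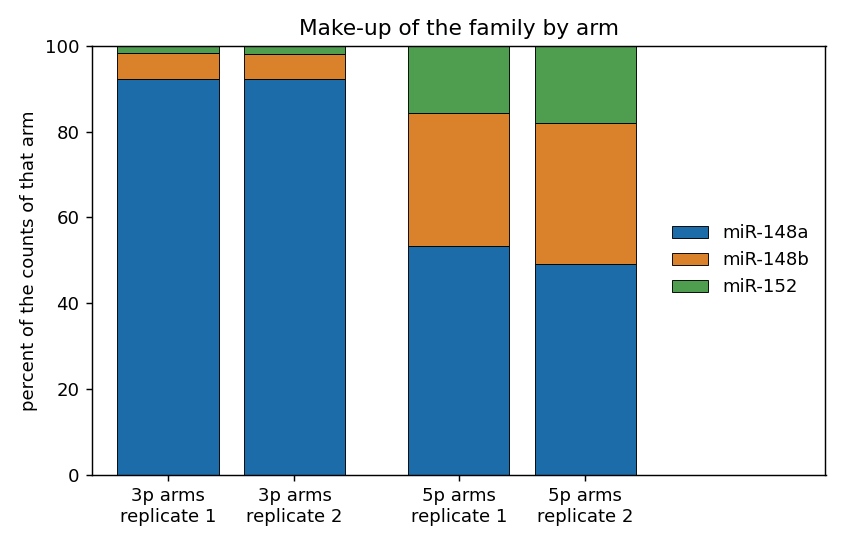
Percent of the counts of the 3p arms (left) and of the 5p arms (right) held by miR-148a, miR-148b and miR-152 in each library, as stacked bars. miR-148a held 92.3% on average among the 3p arms and 51.2% among the 5p arms.

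As a seed group, the 3p arms ranked among the most abundant of the retina. Counts were summed over miRNAs with the same bases 2 to 8 in RefSeq, which held sequences for 1152 of the 1358 miRNAs and for 95.5% of the counts in each library. Among these, no miRNA other than the 3p arms of the family carried CAGUGCA. This seed held 2.19% of the counts in replicate 1 (exact interval 2.18 to 2.20) and 2.48% in replicate 2 (2.47 to 2.49), a mean of 2.34% ± 0.208 and rank 9 of 982 seeds. The miRNAs without a RefSeq entry included miR-30d-5p. With seeds read from the most frequent reads instead, which brought it in, the family ranked 10.

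The 5p arms made up little of the pool. The seed AAGUUCU, shared by miR-148a-5p and miR-148b-5p alone, held 89.2 ± 2.03 CPM and rank 133, and AGGUUCU, found in miR-152-5p alone, held 18.0 ± 2.57 CPM and rank 233. All 6 arms together held 2.35% ± 0.209 of the counts.

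miR-148a-3p held 92.3% of the level of its seed, the highest value among the 11 seeds with 3 or more members detected in both libraries and at least 100 CPM, over which the leading member held a median of 56.7%. Next came the seed of miR-16-5p at 81.0% and that of miR-125a-5p at 76.2%. With seeds from the most frequent reads there were 16 such groups, and that of miR-378a-3p, at 97.4%, stood above the miR-148 group. Seeds with fewer detected members could be more unequal still, as in the pairs led by miR-26a-5p (97.4%) and miR-7a-5p (95.4%).

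A related seed lies 1 base further along. The last 6 bases of the family's seed, AGUGCA, are bases 2 to 7 of the miR-130/301 miRNAs. These were singled out for their sequence with levels already known. miR-152-3p, the lowest 3p arm of the family, had 3206 counts in replicate 1 and 3967 in replicate 2, against 3184 and 2463 for miR-130a-3p, so these were nearly level in replicate 1. miR-130b-3p had 1242 and 989 counts and miR-301a-3p had 256 and 306. miR-301b-3p was not among the RefSeq sequences matched here, and had 408 and 305 counts. It joined the seed group of miR-130a-3p when seeds were read from the most frequent reads, which gave 4 detected members in place of 3.

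The most frequent read of every arm was the same in both libraries and started at the annotated 5′ end, so the seed of the most frequent read was the annotated one in all 6 arms. In 5 of the 6 arms this read equalled the RefSeq sequence over its whole length. The exception was miR-148b-5p, whose read GAAGTTCTGTTATACACTCAGGC of 23 bases ended 1 base before the RefSeq sequence of 24 bases. None of the reads carried an added base or a mismatch. Among all miRNAs at 10 CPM or more, 339 of 365 had the same most frequent read in both libraries, and 158 of the 314 with a RefSeq sequence (50.3%) had a read equal to it. On the genome the miR-148a-3p read covers chr6:51269829-51269850, the miR-148b-3p read chr15:103285185-103285206 and the miR-152-3p read chr11:96850439-96850459. All 3p arms begin with U, as did 50.9% of the 161 miRNAs at 100 CPM or more with a RefSeq sequence, while the 5p arms begin with A, G and U.

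Between the libraries, the 3p arms were higher in replicate 2, and the 5p arms did not pass the test. An exact two-sided binomial test with the libraries scaled by their table totals, adjusted by Benjamini-Hochberg over 710 miRNAs with at least 10 counts, called 27.9% of them, and 8.31% of them were called as higher in replicate 2. Of the family, 3 arms were called, all higher in replicate 2. The log2 ratio of replicate 2 over replicate 1 was 0.18 for miR-148a-3p (adjusted p at or below 1e-300, the smallest value written), 0.12 for miR-148b-3p (adjusted p = 3.39e-09) and 0.35 for miR-152-3p (adjusted p = 5.64e-23). Of the 180 miRNAs that reached 100 CPM, the test called 141, so a call is usual at these levels, and 45 of them were higher in replicate 2.

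The 5p arms had log2 ratios of -0.032 for miR-148a-5p (adjusted p = 0.896, exact binomial test), 0.17 for miR-148b-5p (0.348) and 0.29 for miR-152-5p (0.240). These rest on 135 to 462 counts, with a counting error of 4.65% to 8.61% per library, so a difference of the size seen in the 3p arms may not have been detectable at this depth. Over all tested miRNAs the log2 ratio had a median of -0.12 with table totals and of -0.0057 with TMM scaling. Scaled by TMM, the 3p arms stayed called at 0.30, 0.24 and 0.46, and all 6 arms had a positive ratio, that of miR-148a-5p being 0.084. This test compares libraries, not conditions.

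**Figure D4:**
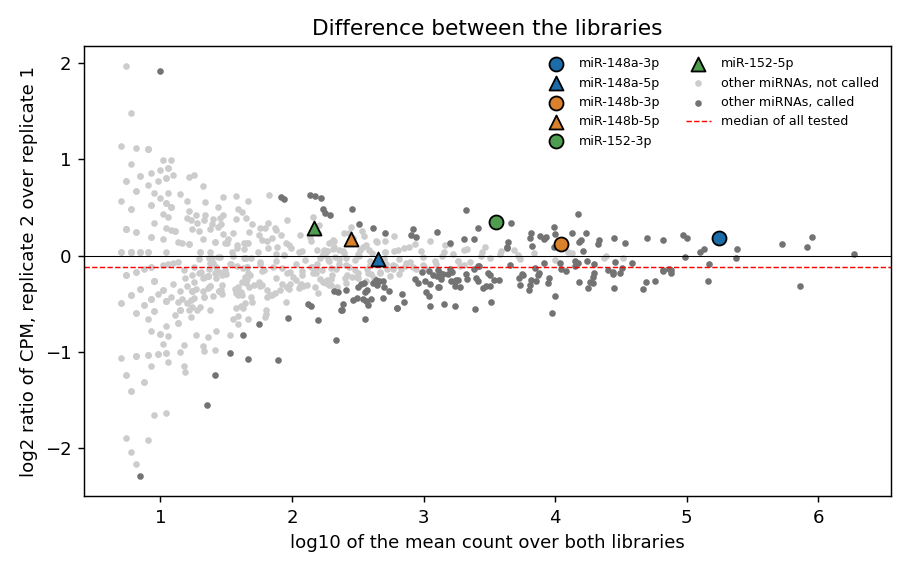
Log2 ratio of CPM in replicate 2 over replicate 1 against the log10 of the mean count, for the 710 tested miRNAs, with 3p arms of the family as circles and 5p arms as triangles and the median of all tested miRNAs as a dashed line at -0.12. All 6 arms lie above the median line, and only miR-148a-5p lies below 0.

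Other miRNAs reported to repress DNA methyltransferase transcripts in human cells were together present at a lower level than the family. The 3p arms of the miR-148 family summed to 23359 ± 2083 CPM, against 4454 ± 471 CPM for the 9 other arms, all of which were detected in both libraries (median 155 CPM). The family exceeded them by a log2 ratio of 2.41 in replicate 1 and 2.38 in replicate 2 (mean 2.39 ± 0.024, 5.25-fold). This excess rested on miR-148a-3p, at 21571 CPM. miR-148b-3p and miR-152-3p, at 1352 and 437 CPM, were together below the sum of the 9 other arms. The highest of the 9 were miR-101a-3p (1830 ± 383 CPM) and miR-101b-3p (1193 ± 176 CPM), reported to target DNMT3A, and miR-126a-3p (905 ± 90.9 CPM), an endothelial miRNA. miR-185-5p was at 295 ± 25.0 CPM, miR-342-3p at 155 ± 24.8 CPM and miR-143-3p, a smooth muscle miRNA, at 61.7 ± 4.60 CPM. The miR-29 arms, the best known repressors of DNMT3A and DNMT3B, were low, with miR-29a-3p at 11.2 ± 0.992 CPM, miR-29b-3p at 1.79 ± 0.783 CPM and miR-29c-3p at 1.61 ± 0.356 CPM. Of the 9 arms, 1 exceeded miR-148b-3p and 3 exceeded miR-152-3p in mean level.

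The miRNAs encoded inside Hox clusters stood at the other end of the range. Of the arms of miR-10a, miR-10b, miR-196a, miR-196b and miR-615, 5 had a row in the tables. miR-10b-5p had 9 and 13 counts in replicates 1 and 2, miR-10a-5p 9 and 8, miR-196b-5p 3 and 1, and miR-196a-5p 0 and 1. miR-10a-3p was at 0 in both libraries, which allows a level of up to 0.36 and 0.37 CPM (3 counts of the total). The 3p arms of the miR-148 family thus summed to 23359 CPM, against 2.68 ± 0.222 CPM for these arms, a log2 ratio of 13.05 in replicate 1 and 13.07 in replicate 2. Most of the family sum was miR-148a-3p, at 21571 CPM. The 3p arms of Mir148b and Mir152, the hairpins described above as near a Hox cluster, were at 1352 and 437 CPM.

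The libraries carried the miRNAs of neural retina. The 5 markers miR-9-5p, miR-124-3p, miR-182-5p, miR-183-5p and miR-96-5p held 39.8% and 42.0% of the counts. Most of this was miR-9-5p (227200 CPM), miR-182-5p (110064 CPM) and miR-183-5p (65116 CPM), with miR-96-5p at 5964 CPM. The remaining marker, miR-124-3p, was at 649 CPM. It stood below miR-204-5p of pigment epithelium (3389 CPM), miR-126a-3p of endothelium (905 CPM) and miR-184-3p of lens and surface epithelium (804 CPM). Together, 22 markers of pigment epithelium, lens and surface epithelium, endothelium, blood, leukocytes, liver and muscle held 0.590% and 0.511%. Of these other markers 3 were at 0 in both libraries: the leukocyte miRNAs miR-150-5p and miR-223-3p and the surface epithelial miR-205-5p. miR-148a-3p was at 21571 CPM, against 20.9 ± 0.223 CPM for the liver marker miR-122-5p and 31.9 ± 5.24 CPM for the sum of the 6 leukocyte markers, of which 4 were detected in both libraries (28.2 to 35.6 CPM in all). Other marker sums were higher, at 3395 CPM for pigment epithelium, 925 for lens, cornea and surface epithelium and 920 for endothelium. Those of muscle, red blood cells, and smooth muscle with pericytes were 90.4, 62.8 and 61.8 CPM. Each of these sums was mostly a single arm, miR-206-3p (70.7 CPM), miR-486a-5p (62.3 CPM) and miR-143-3p (61.7 CPM). The other muscle markers miR-1a-3p and miR-133a-3p were at 18.3 and 1.37 CPM. The red blood cell markers miR-451a and miR-144-3p were at 0.36 and 0.18 CPM, and miR-145a-5p of smooth muscle was at 0.18 CPM. The pigment epithelium sum was likewise nearly all miR-204-5p, with miR-211-5p at 5.62 CPM. Whole retina mixes many cell types, so more cells of a type and more RNA per cell cannot be told apart, and the part of other cells in the level of miR-148a-3p was not tested.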

How the data were processed

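Small RNA of 18 to 30 nt from whole P0 retina was sequenced in 2 libraries, made with a ligation-based kit per the labels' protocols. Per the submitters' processing notes, bcl2fastq 2.17.1.14 produced the reads. For the aligner, the counter and the build, versions and settings were not given in the sources used here. The authors deposited estimated counts per mature miRNA, not scaled. Tests used these counts rounded to the nearest whole number. The deposited CPM had been scaled by the authors to a larger library total, and its listed rows summed to 88.5% of the full scale in each library. The third deposited table held other content, the most frequent read as text, marked against miRBase 21 per the file headers, where a shorter 3′ end carries no mark. CPM used here was computed with the sum of all listed counts and was 1.13 times the deposited CPM.

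Within a library, log2 ratios of counts had 0.5 added to each count. Exact binomial tests and intervals cover counting error only, and they treat every read as independent. Reads carried no molecular identifiers, so copies of the same molecule could not be told apart and the true counting error may be larger. The named miRNAs were the members, their neighbours by level, miRNAs sharing a seed or compared as seed groups, the lists for DNA methyltransferases and Hox clusters, and the markers of neural retina and of other tissues. Members and lists were chosen with earlier results of these data known. Functions were checked on simulated data with known answers. Scaling alternatives used edgeR 4.0.16 (TMM) and DESeq2 1.42.0 in R 4.3.3. The rest was run in Python 3.11.15 with SciPy 1.17.1, statsmodels 0.14.6, pandas 2.3.3, NumPy 2.4.6 and matplotlib 3.10.9. Alternatives were the added count, count minimums, scaling, rounding, the deposited CPM, the seed definition and leaving out each library.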

Additional observations from a re-analysis of the deposited data

How the results depend on the processing

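Of 117 values recomputed for 29 results, 108 were counted as unchanged, by a rule that depended on the kind of result. Called ratios had to keep their direction and stay called, and ratios not called had to stay not called, whatever their sign. Arm ratios from unrounded counts or the deposited CPM had instead to keep their direction and move by less than the SD. Levels and shares had to move by less than the SD. Numbers of calls and the seed rank had to stay within a fixed fold of the main value. Shares of most frequent reads had to stay within the exact interval of the main value. The arm ratios and the make-up of the family moved little under every alternative run, but several of these outcomes were fixed in advance. The deposited CPM scales each library as a whole, so ratios and shares within a library could change only by rounding. The count minimums lay far below the counts of these hairpins. A mean of 2 libraries always moves by less than their SD when 1 is left out, which holds for levels, make-up and seed share. From the deposited CPM, mean levels were 19094 CPM for miR-148a-3p, 1197 for miR-148b-3p, 48.6 for miR-148a-5p and 30.5 for miR-148b-5p, because the authors' library total is larger. The number of miRNAs higher in replicate 2 was 59 by table totals, 106 with TMM and 108 with DESeq2 size factors, and the number lower was 139, 81 and 77. At 10 CPM or more, 92.9% of miRNAs had the same most frequent read in both libraries, against 97.2% at 100 CPM or more. Leaving out 1 library leaves no SD, so those calls rest on counting error alone. No paired analysis was possible because there is only 1 group. Counting error limits the 5p arms, at up to 8.61% per library.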
